A study of Mus musculus with 53 samples.

Results

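The collagen chain genes were taken as the gene symbols made of Col, a number, the letter a and a second number, and 44 of the 49568 symbols in each sample's values matched this pattern. By the type of collagen they build, 11 were fibrillar chains, 6 were chains of basement membrane collagen (type IV), and 27 were other chains, such as the microfibril-forming type VI, the fibril-associated types and the transmembrane types. Messenger RNA was sequenced from 53 sciatic nerve (SCN) samples of male C57BL/6J mice. SD mice were fed a standard diet throughout and were sampled at 16 weeks (n = 5) and 24 weeks (n = 8). HFD mice, the prediabetic model, received a diet with 60% of its energy from fat from 5 weeks of age (n = 7 at 16 weeks and n = 7 at 24 weeks). HFD-STZ mice, the type 2 diabetes (T2D) model, ate the same diet and were injected with streptozotocin (STZ), a toxin for insulin-producing cells, at 12 weeks of age, with 75 mg/kg and then 50 mg/kg after 3 days (n = 5 at 16 weeks and n = 8 at 24 weeks). Dietary reversal (DR) mice of both models were moved at 16 weeks, for 8 weeks, to a control diet (13% of energy from fat in the series text, whereas the study's methods return them to the diet of the SD mice and give that a lower fat share) (n = 7 HFD-DR and n = 6 HFD-STZ-DR, sampled at 24 weeks). The whole nerve was measured, so each value mixes Schwann cells, fibroblasts, perineurial cells, vessels and attached tissue.

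Collagens are triple helices of 3 chains, and the chains of one type are usually made together. In peripheral nerve, fibrillar collagens of types I, III and V fill the epineurium and the endoneurium between the axons, and type IV collagen forms the sheet in the basement membrane around each Schwann cell, perineurial cell and vessel. Newly made chains are hydroxylated and folded in the endoplasmic reticulum, trimmed outside the cell by procollagen proteinases, and cross-linked by lysyl oxidases.

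Deposited values were log2 transformed by the authors, and all levels and differences below are in log2 units. The number of reads behind them is unknown, so the spread between mice served as the error. Schwann cell markers were high in every sample, with Pmp22 between 19.51 and 20.96 and Sox10 between 14.26 and 15.31. The mean over 6 adipocyte markers ran from 8.36 to 14.45 and that over 6 skeletal muscle markers from 7.05 to 17.43 across samples. One library, HFD-STZ 24 weeks replicate 7, stood apart in its collagen values. It was the lowest of its group for 30 of 43 members, with class means of -1.07 (fibrillar), -1.39 (basement membrane) and -0.91 (other) relative to each gene's median. No other sample had a fibrillar mean below -0.42, a basement membrane mean below -0.75 or a mean of the other chains below -0.55. The same library also had the lowest marker means of all samples for fibroblasts (9.68), perineurial cells (11.56), endothelial cells (10.36) and mural cells (11.54), and their part in its collagen values was not tested. The members' averaged age differences, and their main values in comparisons with its group, are also given without it. Counts and medians of single collagen classes include it wherever its group was compared.

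**Figure D1:**
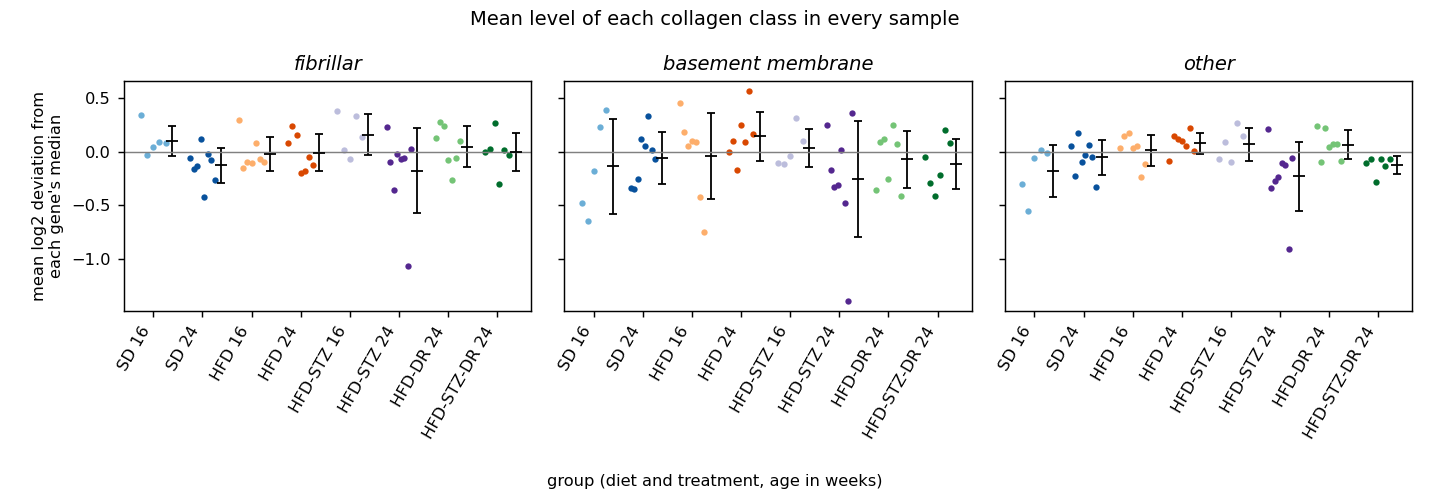
Mean log2 deviation of each collagen class from the genes' medians (y axis) in each of the 53 samples, by group (x axis, age in weeks); points are samples, and black bars show the group mean and standard deviation. The lowest point in each panel is HFD-STZ 24 weeks replicate 7, at -1.07, -1.39 and -0.91.

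Levels of different genes were compared per kilobase of the longest coding transcript in GENCODE M21, on the log2 scale and as means of the 8 group means. This assumes that the deposited values were not already divided by length. The paper's methods calculated length-divided values for all genes, and whether those were deposited is not stated. If they were, the order below divides by length more than once. Per kilobase, Col1a2 was the most abundant member (14.07), followed by Col3a1 (13.60), Col1a1 (13.32), Col4a1 (13.06), Col4a2 (12.19) and Col23a1 (11.96). Col3a1 differed from both its neighbours in this order, Col1a2 and Col1a1, by less than its own typical spread within a group (standard deviation 0.48). Col23a1 encodes a transmembrane collagen. The other type IV chains were far lower, from 6.75 (Col4a5) to 3.02 (Col4a6). Col10a1, a cartilage collagen, was the only member below the filter on low values (a mean of 10 on the linear scale), with values between 1.92 and 3.43, so 43 of the 44 members were tested in each comparison.

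In 6 chosen pairs, chains that assemble in the same molecule or lie side by side in the genome moved together between mice. Other pairs of genes were not correlated, so whether these pairs moved together more than others was not tested. After subtraction of the group means, Pearson's r over the 53 samples was 0.95 for Col4a1 with Col4a2 (Spearman's rho 0.93), whose genes lie head to head on chromosome 8 and overlap at their starts, where reads counted without strand cannot be told apart, and 0.95 for Col6a1 with Col6a2 (rho 0.95). It was 0.91 for the type I chains Col1a1 and Col1a2 (rho 0.85), 0.90 for Col4a3 with Col4a4 (rho 0.89), 0.79 for Col5a1 with Col5a2 (rho 0.69) and 0.54 for Col4a5 with Col4a6 (rho 0.51). In permutation tests within groups (100000 resamples), the Benjamini-Hochberg adjusted p-values over these 6 pairs were 1.2e-05 for the first 5 pairs, by r and by rho, where each raw p was the smallest the resamples can give (1e-05). For Col4a5 with Col4a6 they were 7e-05 by r and 0.00037 by rho, with raw p-values of the same size. Without the 2 samples farthest from the median of the first gene, r was between 0.51 (Col4a5 with Col4a6) and 0.95 (Col4a1 with Col4a2). With the runs of consecutive library numbers also removed, r was between 0.54 and 0.96 in the same pairs.

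The question of how collagen expression changed with age was addressed by comparing 24 with 16 weeks, averaged over SD, HFD and HFD-STZ mice (40 samples). Collagen chains that changed were lower in the older nerves: 8 of 43 members passed a limma p of 0.05 after adjustment over all genes (Benjamini-Hochberg), all 8 lower at 24 weeks and none higher. Over all 18032 genes tested, 826 (4.58%) passed, 594 (3.29%) lower and 232 (1.29%) higher. With each sample centred on its median, 1742 genes passed as lower and 227 as higher, and 11 members passed, all lower. The 8 genes were the fibrillar Col1a1, Col1a2 and Col11a1 and, among the other chains, Col9a3, Col14a1, Col23a1, Col26a1 and Col28a1. At an unadjusted p under 0.05, 13 members were lower and 1 was higher, against 10.2% of all genes lower and 11.2% higher. The members' median difference was -0.074 and that of all genes was 0.013. In bulk nerve, fewer cells of a type and less RNA per cell cannot be told apart. Mice of the 2 ages were also collected on different days by design, so age and collection cannot be told apart.

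**Figure D2:**
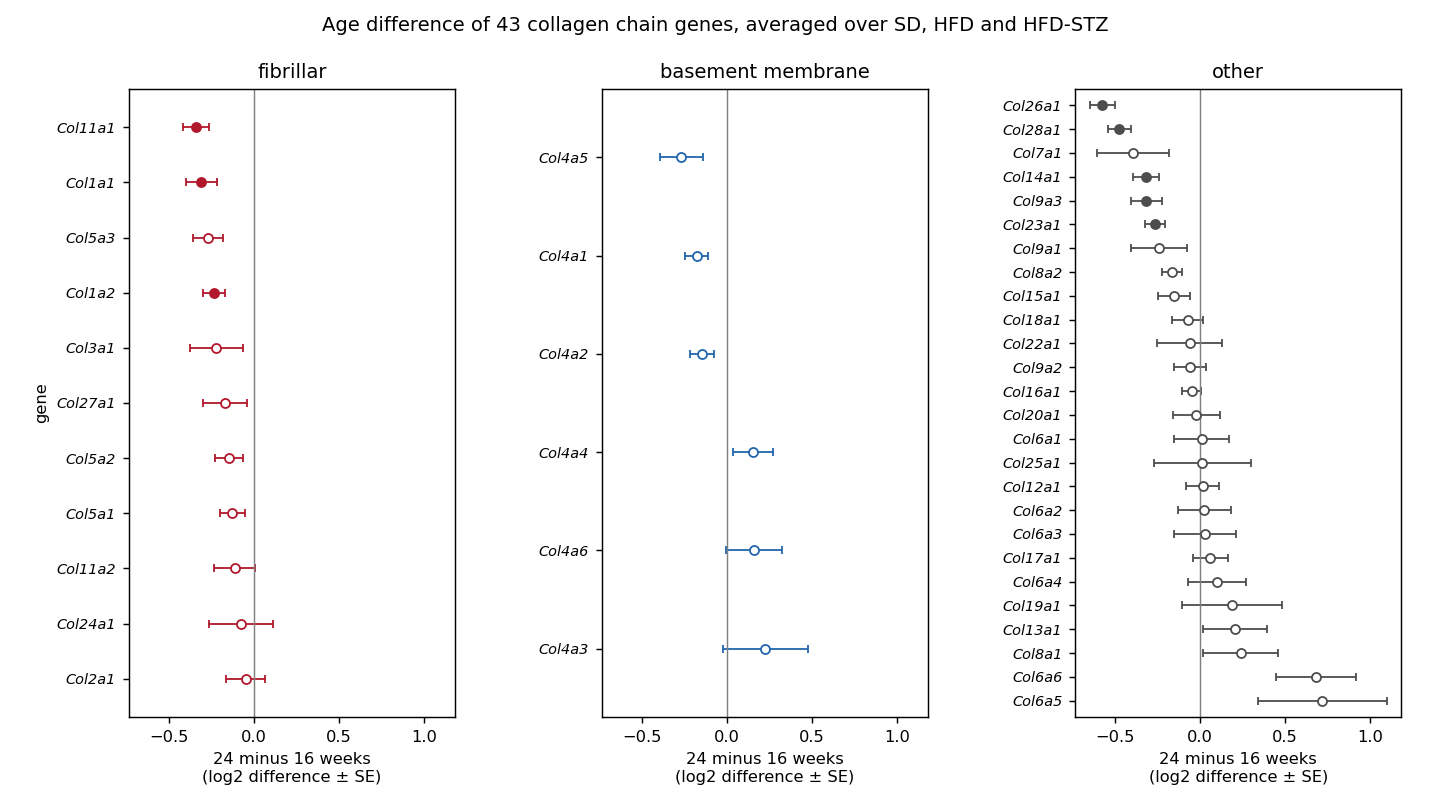
Difference between 24 and 16 weeks, averaged over SD, HFD and HFD-STZ (x axis, log2 difference with SE), for the 43 tested members (y axis) by class. Filled points passed the adjusted threshold: 3 of 11 fibrillar, 0 of 6 basement membrane and 5 of 26 other chains, all to the left of 0.

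The 2 members with the smallest p-values were Col26a1 and Col28a1. Col26a1 encodes type XXVI collagen, a secreted chain first described in testis and ovary, encoded on chromosome 5 between 136741759 and 136883209 (GRCm38). In SD nerve, Col26a1 was 10.45, 10.56, 10.60, 10.80 and 10.96 in the 5 samples at 16 weeks and between 9.53 and 10.28 (median 10.06) in the 8 at 24 weeks. In HFD nerve, it was between 10.13 and 10.77 (median 10.38) at 16 weeks and between 9.47 and 10.32 (median 9.96) at 24 weeks. In HFD-STZ nerve, it was 10.27, 10.27, 10.49, 10.50 and 10.84 at 16 weeks and between 9.61 and 10.21 (median 9.89) at 24 weeks. The ages did not overlap in SD and HFD-STZ mice and overlapped in HFD mice. The averaged difference was -0.58 (SE 0.0725, limma adjusted p = 4.04e-06), or 0.671 times the level at 16 weeks, and -0.56 (adjusted p = 4.3e-06) without the library that stood apart. Within each diet group, the difference was -0.67 (SD), -0.46 (HFD) and -0.59 (HFD-STZ), with 2-sided exact permutation p-values of 0.000777, 0.00466 and 0.000777, of which 0.000777 is the smallest that 5 against 8 samples allow. Of the DR groups, sampled at 24 weeks, HFD-DR had a mean of 10.01 ± 0.15 (standard deviation, n = 7), in the range of the other older nerves. The HFD-STZ-DR mean was 10.05 ± 0.26 (standard deviation, n = 6). The highest HFD-STZ-DR sample (10.38) lay above every other older sample and within the range of the younger HFD and HFD-STZ samples.

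Col28a1 encodes type XXVIII collagen, a chain with von Willebrand factor A domains that is known from the surroundings of Schwann cells in peripheral nerve, and lies on chromosome 6 from 7997808 to 8192617. In SD nerve, Col28a1 was 11.60, 11.60, 11.68, 11.87 and 11.94 at 16 weeks and between 10.83 and 11.53 (median 11.26) at 24 weeks. In HFD nerve, it was between 11.32 and 11.78 (median 11.53) at 16 weeks and between 10.71 and 11.45 (median 11.09) at 24 weeks. In HFD-STZ nerve, it was 11.64, 11.74, 11.79, 11.92 and 12.08 at 16 weeks and between 11.09 and 11.58 (median 11.39) at 24 weeks. All younger SD and HFD-STZ samples were above every older sample of the same diet, and the HFD groups overlapped. In DR mice at 24 weeks, Col28a1 was between 10.94 and 11.75 (HFD-DR) and between 11.08 and 11.75 (HFD-STZ-DR), overlapping the younger samples. The averaged difference was -0.47 (SE 0.0651, limma adjusted p = 1.14e-05), or 0.720 times the younger level, and -0.47 (adjusted p = 1.78e-05) without that library. It was -0.49 in SD, -0.44 in HFD and -0.49 in HFD-STZ mice, with 2-sided exact permutation p-values of 0.00155, 0.00524 and 0.00155. Among mice of the same run of consecutive library numbers, 14 of 15 differences between the ages were negative for Col26a1 (median -0.59) and 14 of 15 for Col28a1 (median -0.53). For Col4a5, which did not pass, 13 of 15 were negative. These differences reuse the samples by which the 2 genes were picked, so they are not separate support. The shares of all genes with such differences, or without overlap between the ages, were not counted.

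**Figure D3:**
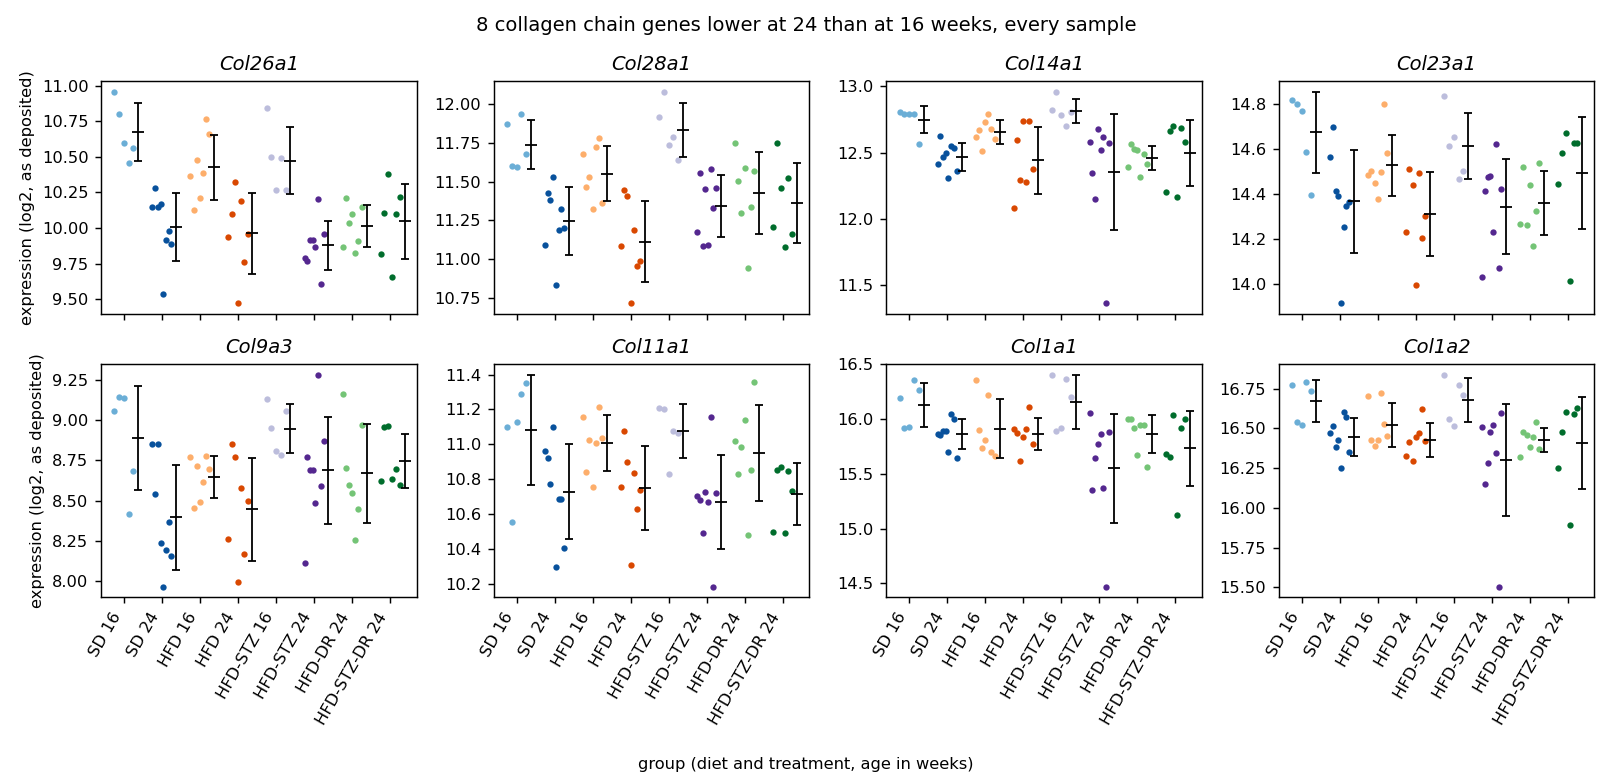
Deposited log2 expression (y axis) of the 8 genes that were lower at 24 weeks, in each sample of the 8 groups (x axis, age in weeks); points are samples, and black bars show the group mean and standard deviation. For Col26a1 and Col28a1, all samples of SD and HFD-STZ mice at 16 weeks lie above those at 24 weeks.

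The promoters of 3 of these 8 genes are shown because the genes fell together and their RefSeq windows hold no annotated exon in GENCODE M21. RefSeq (GRCm38.p6) gave a window for 35 of the 44 members, and for 4 of the 8 genes that fell. That of Col1a2 overlaps an annotated exon and is not printed. Each sequence is the 250 bases before the start, 5′ to 3′ on the gene's strand. Capitals mark CCAAT or its reverse complement ATTGG, the binding motif of the factor NF-Y, and GGGCGG or CCGCCC, the GC box bound by Sp1, which do not overlap here. Col28a1 is at chr6:8192618-8192867 (minus strand), Col11a1 at chr3:114030290-114030539 (plus strand) and Col23a1 at chr11:51289670-51289919 (plus strand).
Col28a1: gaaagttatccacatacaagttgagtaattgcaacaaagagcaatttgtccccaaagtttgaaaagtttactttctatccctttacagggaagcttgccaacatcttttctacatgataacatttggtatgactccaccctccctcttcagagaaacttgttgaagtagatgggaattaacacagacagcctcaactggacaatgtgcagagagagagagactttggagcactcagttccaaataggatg
Col11a1: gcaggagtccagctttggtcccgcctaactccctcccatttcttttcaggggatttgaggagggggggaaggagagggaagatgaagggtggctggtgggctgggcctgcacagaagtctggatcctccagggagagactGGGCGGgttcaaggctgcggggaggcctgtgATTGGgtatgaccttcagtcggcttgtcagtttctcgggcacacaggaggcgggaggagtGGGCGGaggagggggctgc
Col23a1: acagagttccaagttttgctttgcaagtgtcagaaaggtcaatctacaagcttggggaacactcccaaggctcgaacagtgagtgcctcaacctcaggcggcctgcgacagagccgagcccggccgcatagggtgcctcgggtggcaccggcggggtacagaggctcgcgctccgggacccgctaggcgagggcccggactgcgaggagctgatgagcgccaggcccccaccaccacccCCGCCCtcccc
Col28a1 had neither motif in its window and the lowest share of G and C of the 3 (40.4%, against 62.4% for Col11a1 and 66.0% for Col23a1). Col11a1 had 1 CCAAT motif, 79 bases before the start, and 2 GC boxes, and Col23a1 had 1 GC box. Over all 32851 RefSeq windows of this length, 33.8% held the CCAAT motif and 32.7% the GC box. Of the 35 members with a window, 12 held the former and 21 the latter. Such matches are letters in a window and were not tested as binding sites.

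All 11 fibrillar chains had a negative averaged difference, with a median of -0.17, and 3 passed the threshold. Within the diet groups, 10 of 11 were negative in SD and 11 of 11 in HFD-STZ mice (medians -0.23 and -0.37), but 5 of 11 in HFD mice (median 0.0047). The averaged and HFD-STZ values include the library that stood apart. Its fibrillar mean was -1.07, against -0.36 in the next lowest HFD-STZ sample at 24 weeks. Col1a1 and Col1a2 encode the chains of type I collagen, the main fibril of connective tissue. In SD nerve, Col1a1 was 15.92, 15.92, 16.20, 16.27 and 16.36 at 16 weeks and between 15.65 and 16.05 (median 15.88) at 24 weeks. In HFD nerve, Col1a1 was between 15.67 and 16.35 (median 15.81) at 16 weeks and between 15.62 and 16.11 (median 15.88) at 24 weeks. In HFD-STZ nerve, Col1a1 was 15.89, 15.92, 16.21, 16.37 and 16.41 at 16 weeks and between 14.47 and 16.05 (median 15.71) at 24 weeks. The ages overlapped in each diet group, and the HFD medians were close to each other. The averaged difference of Col1a1 was -0.31 (SE 0.0912, limma adjusted p = 0.0428), and it was -0.26 (adjusted p = 0.0215) without the library that stood apart.

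For Col1a2, SD nerve gave 16.52, 16.54, 16.74, 16.77 and 16.79 at 16 weeks and between 16.25 and 16.61 (median 16.45) at 24 weeks. HFD nerve gave between 16.39 and 16.72 (median 16.45) at 16 weeks and between 16.30 and 16.62 (median 16.42) at 24 weeks. HFD-STZ nerve gave 16.52, 16.56, 16.71, 16.77 and 16.84 at 16 weeks and between 15.51 and 16.60 (median 16.41) at 24 weeks. The older samples lay lower in SD and HFD-STZ mice, with overlap, and nearly level in HFD mice. Averaged, Col1a2 fell by 0.23 (SE 0.0639, limma adjusted p = 0.0285) with age, and by 0.19 (adjusted p = 0.00958) without that library.

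Col11a1 encodes a chain of type XI collagen, which nucleates thin fibrils, and lies on chromosome 3 from 114030540 to 114220718. In SD nerve, Col11a1 was 10.55, 11.10, 11.13, 11.29 and 11.35 at 16 weeks and between 10.30 and 11.10 (median 10.73) at 24 weeks. In HFD nerve, Col11a1 was between 10.76 and 11.22 (median 11.02) at 16 weeks and between 10.31 and 11.07 (median 10.76) at 24 weeks. In HFD-STZ nerve, Col11a1 was 10.83, 11.07, 11.08, 11.20 and 11.21 at 16 weeks and between 10.19 and 11.15 (median 10.69) at 24 weeks. Most older samples were below most younger ones in each diet group, with overlap. The averaged difference was -0.34 (SE 0.0767, limma adjusted p = 0.0074), and -0.32 (adjusted p = 0.00767) without the library that stood apart. The type V chain Col5a3 was next in order, at -0.27 (SE 0.0880, adjusted p = 0.0651), and did not pass. Col3a1, the single chain of type III collagen and one of the most abundant members, had a difference of -0.22 with a larger error (SE 0.16, adjusted p = 0.441), and the type V chains Col5a1 (-0.13, SE 0.0756) and Col5a2 (-0.14, SE 0.0826) did not pass either. Without that library, the differences were -0.23 for Col5a3, -0.14 for Col3a1, -0.081 for Col5a1 and -0.097 for Col5a2. Col3a1 passed with the adipocyte score as a covariate (-0.56, adjusted p = 0.0408) and with the fibroblast score (-0.51, adjusted p = 9.36e-05), and Col5a2 with the latter (-0.26, adjusted p = 0.0178). Col5a3 passed with centred samples (-0.34, adjusted p = 0.0203).

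Of the type IV chains of the basement membrane, 0 of 6 passed, and the class median was 0.0024. The chains Col4a1 and Col4a2, which form the sheet of all basement membranes, had averaged differences of -0.18 (SE 0.0692, limma adjusted p = 0.123) and -0.15 (SE 0.0713, adjusted p = 0.223). Col4a5 had -0.27 (SE 0.13, adjusted p = 0.22). The chains Col4a3, Col4a4 and Col4a6, which are restricted to fewer basement membranes, had differences of 0.22 (SE 0.25), 0.15 (SE 0.12) and 0.16 (SE 0.16), with adjusted p-values of 0.657, 0.489 and 0.626, and turned negative with the Schwann cell, adipocyte or fibroblast score as a covariate. Without the library that stood apart, the differences were -0.15 (Col4a1), -0.11 (Col4a2), -0.21 (Col4a5), 0.32 (Col4a3), 0.21 (Col4a4) and 0.20 (Col4a6). Col4a1 passed as lower with centred samples (-0.24, adjusted p = 0.0248), the adipocyte score (-0.29, adjusted p = 0.0342) and the fibroblast score (-0.26, adjusted p = 0.00921). Col4a5 passed as lower with the adipocyte (-0.51, adjusted p = 0.0423) and fibroblast (-0.47, adjusted p = 0.00128) scores.

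Among the other chains, 5 of 26 passed, with a class median of -0.035. Col14a1, a fibril-associated collagen, was in SD nerve 12.56, 12.79, 12.79, 12.79 and 12.81 at 16 weeks and between 12.31 and 12.62 (median 12.48) at 24 weeks. In HFD nerve, Col14a1 was between 12.51 and 12.79 (median 12.67) at 16 weeks and between 12.08 and 12.74 (median 12.38) at 24 weeks. In HFD-STZ nerve, Col14a1 was 12.70, 12.78, 12.80, 12.82 and 12.96 at 16 weeks and between 11.36 and 12.68 (median 12.54) at 24 weeks. The HFD-STZ ages did not overlap, and in SD mice only 1 younger sample fell among the older ones. Col14a1 fell by 0.32 (SE 0.0744, limma adjusted p = 0.0096) on average and by 0.27 (adjusted p = 0.000887) without the library that stood apart.

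Col23a1 was, in SD nerve, 14.40, 14.59, 14.77, 14.80 and 14.82 at 16 weeks and between 13.91 and 14.70 (median 14.38) at 24 weeks. In HFD nerve, Col23a1 was between 14.38 and 14.80 (median 14.50) at 16 weeks and between 13.998 and 14.51 (median 14.30) at 24 weeks. In HFD-STZ nerve, Col23a1 was 14.47, 14.50, 14.61, 14.66 and 14.84 at 16 weeks and between 14.03 and 14.62 (median 14.42) at 24 weeks. The ages overlapped, with the older medians below the younger ones in all 3 diet groups. The averaged difference of Col23a1 was -0.26 (SE 0.0603, limma adjusted p = 0.00793), and -0.25 (adjusted p = 0.00938) without that library.

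Col9a3, a chain of the fibril-associated type IX known from cartilage, was far lower in level, and its gene overlaps Tcfl5 on the opposite strand. In SD nerve, Col9a3 was 8.42, 8.68, 9.06, 9.14 and 9.14 at 16 weeks and between 7.97 and 8.85 (median 8.30) at 24 weeks. In HFD nerve, Col9a3 was between 8.46 and 8.78 (median 8.69) at 16 weeks and between 7.99 and 8.85 (median 8.50) at 24 weeks. In HFD-STZ nerve, Col9a3 was 8.79, 8.81, 8.95, 9.06 and 9.13 at 16 weeks and between 8.11 and 9.28 (median 8.69) at 24 weeks. The spread at 24 weeks was wider than the difference in the HFD and HFD-STZ groups. On average, Col9a3 changed by -0.32 (SE 0.0904, limma adjusted p = 0.0355), and by -0.31 (adjusted p = 0.0343) without that library.

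Among the chains of type VI collagen, the beaded microfibrils around cells, none passed in the main fit. The averaged differences were 0.0098 for Col6a1 (SE 0.16), 0.024 for Col6a2 (SE 0.16) and 0.029 for Col6a3 (SE 0.18). With errors of this size, no change cannot be told from a fall like that of some chains above. Each turned negative under some alternative settings, such as the Schwann cell score (-0.41, -0.28 and -0.42). With the fibroblast score, Col6a1 passed as lower. Without the library that stood apart, they were 0.085, 0.11 and 0.12. Col6a6, a type VI chain next to its paralogue Col6a5 on chromosome 9 (105687809 to 105828160), was the 1 member with a higher value at 24 weeks at an unadjusted p under 0.05. It was 3.85, 3.93, 5.11, 5.30 and 5.38 in SD nerve at 16 weeks and between 5.05 and 7.22 (median 5.76) at 24 weeks. In HFD nerve, it was between 4.46 and 6.68 (median 5.79) at 16 weeks and between 5.80 and 6.86 (median 6.46) at 24 weeks. In HFD-STZ nerve, it was between 4.95 and 6.07 at 16 weeks and between 3.31 and 6.65 at 24 weeks. The HFD-STZ means were close, at 5.55 and 5.66. Some samples were near the filter on low values. Its averaged difference was 0.68 (SE 0.24, limma adjusted p = 0.0819), and 0.79 (adjusted p = 0.0135) without the library that stood apart, where it passed. It also passed in the fit of all 8 groups with runs of library numbers (0.77, adjusted p = 0.0332). With the Schwann cell score as a covariate, the difference of Col6a6 was 0.18 (limma adjusted p = 0.813). With the adipocyte score it was 0.21 (adjusted p = 0.714). Col12a1, a fibril-associated chain, had a difference of 0.015 (SE 0.098), negative under some settings, and Col15a1 and Col18a1, chains of the basement membrane zone, had -0.15 (SE 0.0936) and -0.074 (SE 0.0904). Without that library, these 3 values were 0.069, -0.0995 and -0.036.

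**Figure D4:**
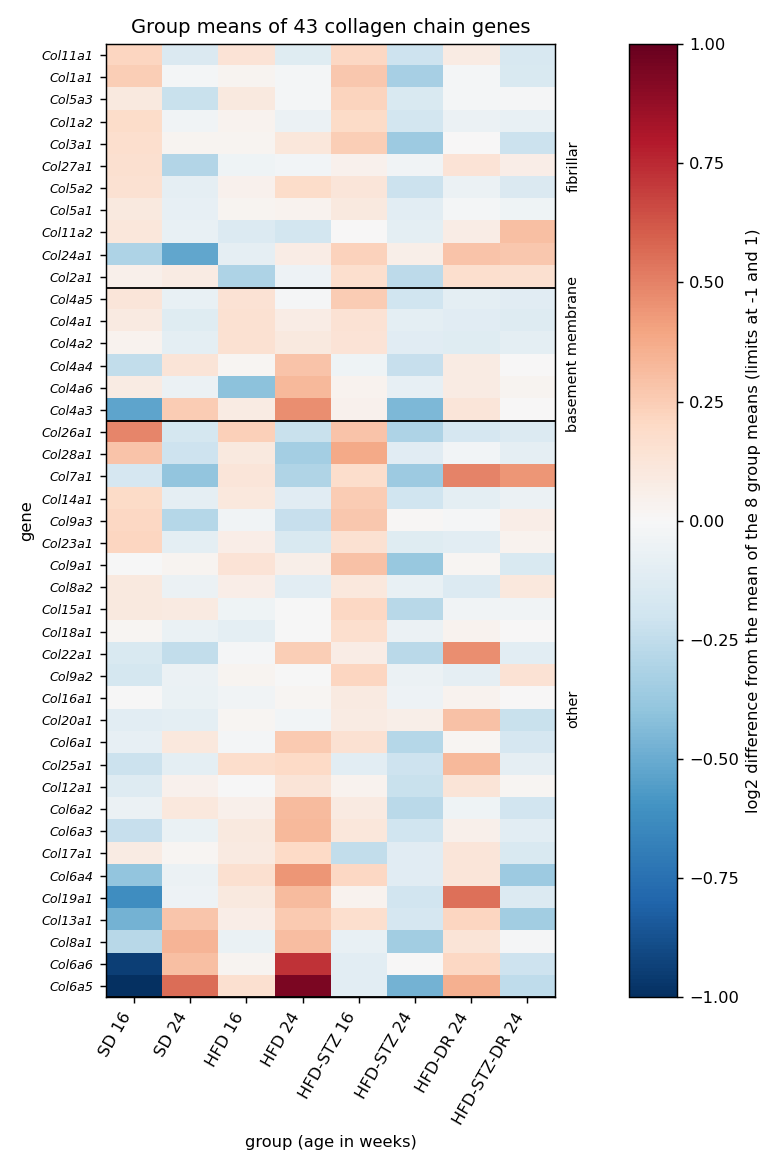
Mean log2 expression of 43 members (rows, by class) in the 8 groups (columns, age in weeks), as the difference from the mean of the 8 group means; the colour scale ends at -1 and 1. Values run from -1.18 to 0.94, and the lowest is that of Col6a5 in SD nerve at 16 weeks.

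Genes that modify, process or bind collagen were followed in the same contrast, from lists of genes named for their function. Of 19 genes for modification and folding, 3 passed, all lower at 24 weeks: Fkbp14, a prolyl isomerase of the endoplasmic reticulum (-0.22, SE 0.0474, limma adjusted p = 0.00495), P4ha1, a prolyl hydroxylase (-0.24, SE 0.0658, adjusted p = 0.0319), and Plod2, a lysyl hydroxylase (-0.25, SE 0.072, adjusted p = 0.038). Of 18 genes for processing, assembly and cross-linking, 2 passed, both lower: Tll1, a procollagen proteinase (-0.41, SE 0.0641, adjusted p = 0.000115), and Lox, the cross-linking lysyl oxidase (-0.42, SE 0.0675, adjusted p = 0.000172). This list had a median of 0.14, with 12 genes positive and 6 negative. Of 7 collagen receptors, 0 passed, with the smallest p for Itga2 (-0.27, SE 0.0920, adjusted p = 0.076). Of 10 partners in the basement membrane, 1 passed, the laminin chain Lamb1 (-0.29, SE 0.0472, adjusted p = 0.000172). Of all genes, 4.58% passed in this contrast, 3.29% as lower, and the lists are too short to be set apart from that share by such counts. Medians were -0.0023 for modification and folding, 0.078 for the receptors and -0.13 for the basement membrane partners, against 0.013 for all genes.

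Some markers of nerve cell types passed in this contrast as well, where 3.29% of all genes passed as lower and 1.29% as higher. Of 6 Schwann cell markers, 4 fell, among them Pmp22 (by 0.44, limma adjusted p = 0.00145) and Prx (by 0.22, adjusted p = 0.0254), and the mean of the list ran from 17.27 to 17.66 in SD nerve at 16 weeks and from 16.73 to 17.57 at 24 weeks. Of 6 adipocyte markers, 3 rose (Lep by 1.84, Cidec by 1.36 and Plin1 by 1.17, adjusted p between 0.0136 and 0.0449), and the list's mean in SD nerve ran from 8.36 to 12.54 at 16 weeks and from 10.56 to 13.31 at 24 weeks. Fibroblast (0 of 5), perineurial (0 of 4), endothelial (0 of 4), macrophage (0 of 4), mural (0 of 4), skeletal muscle (0 of 6) and proliferation (0 of 4) markers did not pass. No defining marker of Schwann cells or adipocytes was near 0 in any sample. With the Schwann cell score as a covariate, an alternative chosen after seeing the data, 2 members passed, Col26a1 (adjusted p = 0.0086) and Col28a1 (adjusted p = 0.0298), with 0.305% of all genes. Their differences were -0.33 and -0.32 there. Of the 6 lost calls, those of Col1a1 (-0.40), Col1a2 (-0.23) and Col14a1 (-0.28) had similar or larger differences, and those of Col11a1 (-0.19), Col23a1 (-0.029) and Col9a3 (-0.016) had smaller ones. With the adipocyte score as a covariate, 7 members and 0.488% of all genes passed, the members being Col26a1, Col28a1, Col1a1, Col1a2 and the newly called Col3a1, Col4a1 and Col4a5. Col11a1, Col14a1, Col23a1 and Col9a3 did not pass with it. What part these cell types had in the collagen values was not tested further.

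Within single diet groups, no member passed the adjusted threshold between the ages when only their own samples were fitted. In the fit of all 8 groups with runs of library numbers, Col26a1 passed in SD (limma adjusted p = 0.00497) and HFD-STZ mice (adjusted p = 0.0165) and Col28a1 in SD mice (adjusted p = 0.0194). In SD mice, 0 of 17788 genes passed (0%), and 10 members were lower and 2 higher at an unadjusted p under 0.05, against 5.04% and 5.43% of all genes. The 2 with the smallest p-values were Col26a1 and Col28a1, given above, on the lower side. On the higher side they were Col6a6 (1.24, SE 0.40, limma adjusted p = 0.423) and Col6a5 (1.73, SE 0.62, adjusted p = 0.437). In HFD mice, 12 of 18360 genes passed (0.0654%) and no member did, and 5 members were lower and 2 higher unadjusted, against 3.22% and 2.68% of all genes. Here the type IV chain Col4a6 was higher (0.73, SE 0.29, adjusted p = 0.808), as was Col6a6 (0.70, SE 0.29, adjusted p = 0.813). In HFD-STZ mice, 0 of 17963 genes passed (0%), and 9 members were lower and 0 higher unadjusted, against 6.69% and 5.85% of all genes. A negative difference was found for 26 of 43 members in SD mice (median -0.092), 18 in HFD mice (median 0.036) and 41 in HFD-STZ mice (median -0.31). Members can move together between mice, so these counts are not separate observations. In HFD-STZ mice, the median was -0.20 without the library that stood apart (8 members lower unadjusted), against -0.010 for all genes. With centred samples, the members' medians were -0.18 (SD), -0.0044 (HFD) and -0.37 (HFD-STZ). Those of all genes were -0.071, -0.023 and -0.065.

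Diet and diabetes were compared with SD nerve at each age, and no collagen chain passed in any of these comparisons. At 16 weeks, 1 of 17962 genes (0.00557%) passed between HFD and SD mice and 0 of 17879 (0%) between HFD-STZ and SD mice. An unadjusted p under 0.05 was reached by 1 member (all genes, 8.55%) in the former and by 2 members (8.41%) in the latter. In both, which share the SD samples, Col6a6 lay on the higher side. Its difference was 0.97 for HFD (SE 0.39, limma adjusted p = 0.559) and 0.84 for HFD-STZ mice (SE 0.35, adjusted p = 0.586). The type IX chain Col9a2 was higher in HFD-STZ mice by 0.39 (SE 0.17, adjusted p = 0.586). Between HFD-STZ and HFD mice at 16 weeks, 0 of 18202 genes passed (0%), and 5 members, all higher in HFD-STZ mice, had an unadjusted p under 0.05, against 4.88% of all genes. All 11 fibrillar chains were on the higher side there, with a median of 0.14. With centred samples, the median of all members tested was 0.11 and that of all genes 0.025. Col9a3 had the smallest p (0.30, SE 0.0907, limma adjusted p = 0.987, 2-sided exact permutation p = 0.00253). Its 5 HFD-STZ samples, from 8.79, lay just above the 7 HFD samples, up to 8.78. It was picked by its p in this comparison, so the exact p and the separation are not separate support. How many of all genes were separated in this way was not counted. Col28a1 was next (0.28, SE 0.0958, adjusted p = 0.987).

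At 24 weeks, 22 of 18191 genes (0.121%) passed between HFD and SD mice, with 0 members among them. The 4 members with an unadjusted p under 0.05 (all genes, 9.05%) were higher in HFD mice, and all 6 type IV chains were on that side, with a median of 0.20. With centred samples, the median of all members tested was 0.093 and that of all genes 0.011. The type V chain Col5a2 had the smallest p: it was between 12.58 and 13.29 (median 12.83) in HFD and between 12.50 and 12.78 (median 12.61) in SD nerve, a difference of 0.27 (SE 0.10, limma adjusted p = 0.438, 2-sided exact permutation p = 0.0166). Col4a2 followed, at 0.20 (SE 0.083, adjusted p = 0.509), and its partner Col4a1 had 0.20 (SE 0.093, adjusted p = 0.538). The change of the HFD effect from 16 to 24 weeks, tested directly, passed in 0 of 18087 genes (0%), and 2 members had an unadjusted p under 0.05 (all genes, 1.67%), Col5a2 (0.38, SE 0.16) and Col4a6 (0.87, SE 0.39), both with a limma adjusted p of 1.

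When older HFD-STZ nerve was set against SD nerve, 6 of 17846 genes passed (0.0336%), with 0 members. Col24a1, a fibrillar chain known from bone, was the 1 member with an unadjusted p under 0.05 (all genes, 5.99%). It was between 9.47 and 10.98 (median 10.31) in HFD-STZ and between 9.19 and 10.53 (median 9.64) in SD nerve, a difference of 0.58 (SE 0.23, limma adjusted p = 0.813), and 0.70 (adjusted p = 0.451) without the library that stood apart. Between HFD-STZ and HFD mice, 0 of 18117 genes passed (0%), and 6 members were lower at an unadjusted p under 0.05, against 5.59% of all genes. The smallest p-values were those of the type IV chain Col4a3 (-0.92, SE 0.38, adjusted p = 0.785) and of Col6a4 (-0.55, SE 0.24, adjusted p = 0.785). In total 37 of 43 members were on the lower side with a median of -0.21. Without the library that stood apart, the median was -0.09, against -0.014 for all genes, and the difference of Col4a3 was -0.62 (adjusted p = 0.934). The change of the HFD-STZ effect with age passed in 0 of 17871 genes (0%), and 1 member, the transmembrane chain Col13a1 (-1.08, SE 0.52, adjusted p = 0.756), had an unadjusted p under 0.05 (all genes, 4.68%), which it did not without that library (-0.88). The members' median in this contrast was -0.22, and -0.10 without that library, where the median of all genes was -0.020.

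Dietary reversal was compared with continued HFD in each model. In the prediabetic model 2 of 18475 genes passed (0.0108%), and in the T2D model 15 of 17862 did (0.084%), with 0 members in either. In the former, 3 members had an unadjusted p under 0.05 (all genes, 6.72%), and in the latter 1 did (6.48%). Col7a1, which encodes the anchoring fibrils known from skin, had the smallest p of the members in both comparisons, which share no samples. Col7a1 was between 5.68 and 7.53 (median 6.41) in HFD and between 6.93 and 8.27 (median 7.24) in HFD-DR nerve. It was between 5.80 and 7.52 (median 6.48) in HFD-STZ nerve and 6.71, 6.98, 7.13, 7.58, 7.72 and 7.88 in HFD-STZ-DR nerve. The DR samples lay from the upper part of the range of the other samples to beyond their highest value, with overlap. The difference was 0.80 (SE 0.31, limma adjusted p = 0.655) in the prediabetic model and 0.81 (SE 0.28, adjusted p = 0.473) in the T2D model, with 2-sided exact permutation p-values of 0.0385 and 0.0223. The latter difference was 0.84 (adjusted p = 0.341) without the library that stood apart.

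**Figure D5:**
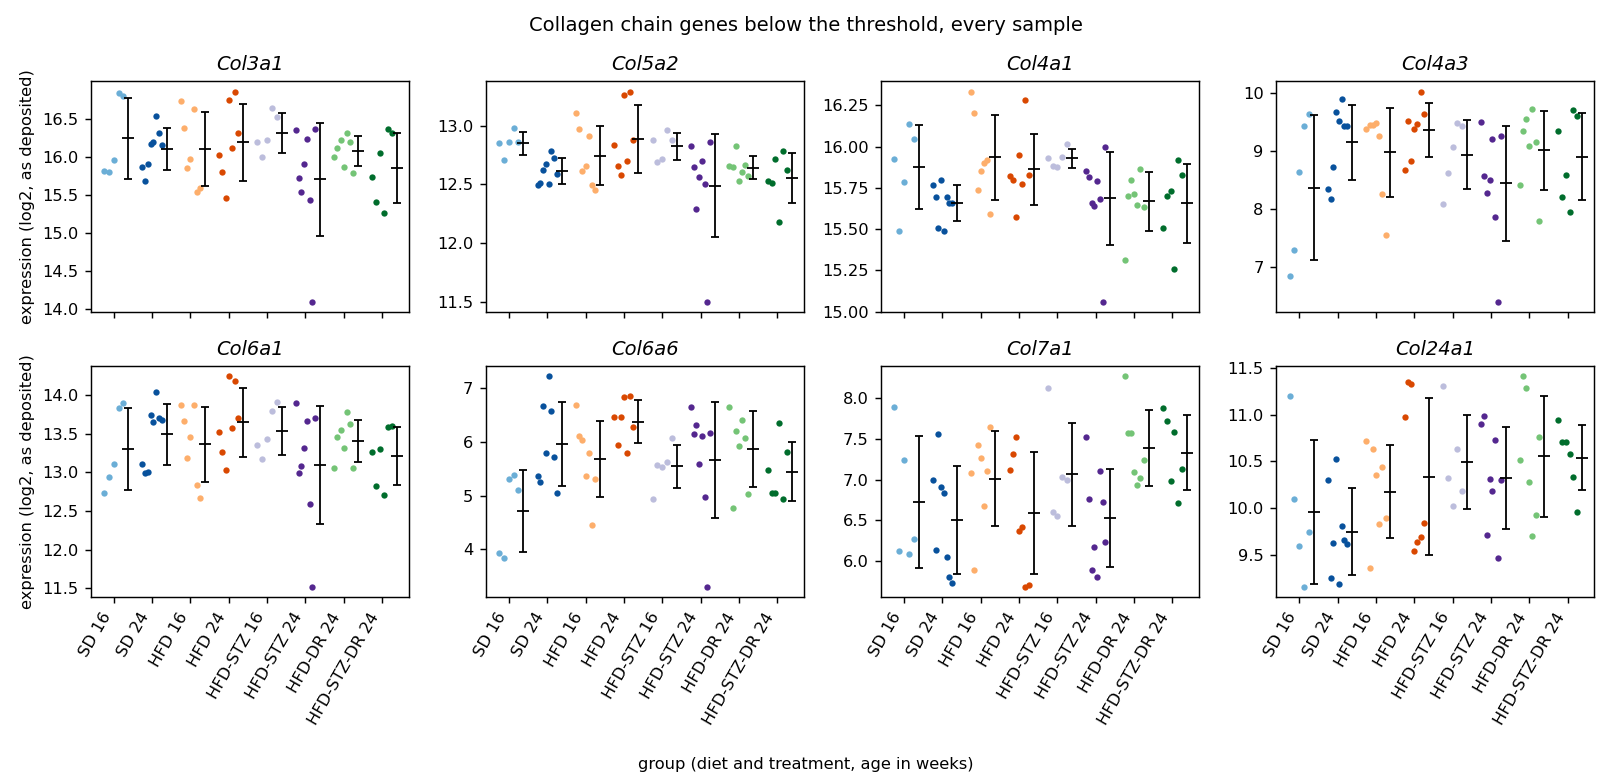
Deposited log2 expression (y axis) of 8 members that did not pass the adjusted threshold, in each sample of the 8 groups (x axis, age in weeks); points are samples, and black bars show the group mean and standard deviation. Col7a1 has its highest group means in HFD-DR (7.39) and HFD-STZ-DR (7.33) nerve, with overlap between all groups.

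In HFD-DR nerve, Col28a1 was also higher than in HFD nerve (0.31, SE 0.13, limma adjusted p = 0.712), and Col5a2 was lower (-0.24, SE 0.11, adjusted p = 0.726). In the T2D model, 37 of 43 members, with all 11 fibrillar chains, were on the higher side after DR, with a median of 0.12. Without the library that stood apart, the members' median was 0.015 and that of all genes 0.022. The difference of the DR effect between the models passed in 0 of 18161 genes (0%), and 0 members had an unadjusted p under 0.05 (all genes, 1.71%).

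DR mice were also compared with SD mice of the same age. Between HFD-DR and SD nerve, 0 of 18145 genes passed (0%), and 2 members, both higher in HFD-DR mice, had an unadjusted p under 0.05 (all genes, 5.14%). Between HFD-STZ-DR and SD nerve, 0 of 17889 genes passed (0%), and 3 members, all higher, had an unadjusted p under 0.05 (9.16%). Col7a1 had differences of 0.89 (SE 0.28, limma adjusted p = 0.925) and 0.83 (SE 0.29, adjusted p = 0.412) from the same SD samples, and Col24a1 had 0.81 (SE 0.26, adjusted p = 0.925) and 0.79 (SE 0.21, adjusted p = 0.313). Col24a1 was between 9.70 and 11.41 (median 10.52) in HFD-DR nerve and 9.96, 10.33, 10.58, 10.71, 10.71 and 10.94 in HFD-STZ-DR nerve, with both medians above that of SD nerve (9.64). That SD median was the lowest of the 8 groups. Without reversal, the medians at 24 weeks were also above it, at 9.85 (HFD) and 10.31 (HFD-STZ). Between HFD-STZ-DR and HFD-DR nerve, 0 of 18189 genes passed (0%), and 1 member, Col13a1 (-0.56, SE 0.25, adjusted p = 0.999), had an unadjusted p under 0.05, against 3.58% of all genes.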

How the data were processed

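RNA-seq values of 53 sciatic nerve samples from male C57BL/6J mice were used. Per the labels, RNA was extracted with Trizol and libraries were made with the TruSeq mRNA kit, whereas the paper's methods name a column kit and a SMART-Seq kit without strand information. Reads were aligned to mm10 with HISAT2 and counted with featureCounts, with versions not given in the sources used here. The authors deposited 1 log2 value per gene and sample, normalized between samples in a way not named there. The paper's methods give an approximate read number per sample, but the reads behind each value are unknown, so no counting interval is given. Correlations between samples ran from 0.915 to 0.994, and 0 pairs were identical. Nothing states that samples of a group were not pooled, so p-values measure the spread between these samples.

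Groups came from the labels. Each of 18 comparisons (14 pairs, the averaged age contrast and 3 interactions) was made with limma 3.58.1 (R 4.3.3), fitted to samples of the groups compared, with the prior variance trended on expression. Genes with a mean below 10 on the linear scale and 25 genes above 22 in some sample (0 members) were left out, and p-values were adjusted by Benjamini-Hochberg over all genes tested. For single members, 2-sided exact permutation p-values were added. The test was checked on simulated data. Figures were drawn with matplotlib 3.10.9 in Python 3.11.15.

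The members and lists were chosen with earlier results of these data known. Lum is both a fibroblast marker and a gene of the assembly list. Named members were 20 main chains of nerve matrix, all members past an adjusted p of 0.05, and the 2 with the smallest unadjusted p under 0.05 in each direction and comparison. Listed partner genes were named where they passed or had the smallest p. The alternatives were other filters, all 8 groups in 1 fit without and with the 8 runs of consecutive library numbers, robust empirical Bayes, no variance trend, genes above 22 kept, centred samples, adipocyte and muscle scores as covariates and leaving out each sample. Schwann cell and fibroblast scores as covariates were added after seeing the data.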

Additional observations from a re-analysis of the deposited data

Results flagged for a closer look

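Values of a single sample that lay far from the rest of its group, by the gap to the nearest sample relative to the group's range, were found in 21 of 248 sets of values of the named members. Chance alone gives such a gap in about 1 of 20 sets. In 13 of the 21, the sample was HFD-STZ 24 weeks replicate 7, each time the lowest. Its values were 14.47 for Col1a1, 15.51 for Col1a2, 14.10 for Col3a1, 12.20 for Col5a1, 11.51 for Col5a2 and 13.22 for Col5a3 among the fibrillar chains. They were 15.06 for Col4a1, 13.96 for Col4a2 and 7.54 for Col4a4 among the type IV chains, and 11.02 for Col6a2, 11.36 for Col14a1, 10.97 for Col15a1 and 12.02 for Col18a1 among the others. Col26a1, Col28a1, Col11a1 and Col23a1 had no such gap in this library.

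The other 8 came from 8 different libraries. Col5a3 was highest at 14.73 in SD 16 weeks replicate 1 and at 14.74 in HFD 16 weeks replicate 1. Col4a6 was highest at 6.39 in HFD-STZ 16 weeks replicate 4, Col9a2 at 10.93 in HFD-STZ 16 weeks replicate 1 and Col6a4 at 5.61 in HFD 24 weeks replicate 3. Col14a1 was lowest at 12.56 in SD 16 weeks replicate 5, Col4a1 at 15.31 in HFD-DR 24 weeks replicate 1 and Col23a1 at 14.01 in HFD-STZ-DR 24 weeks replicate 4.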

How the results depend on the processing

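Of the 8 members lower at 24 weeks in the averaged contrast, Col26a1 and Col28a1 passed in 12 of 12 alternatives and, with 1 sample left out at a time, in 40 of 40 fits. Col11a1, Col14a1 and Col23a1 passed in 40 of 40 such fits and in 10 of 12 alternatives, lost with the adipocyte and Schwann cell scores. Col1a2 passed in 38 fits and 10 alternatives, Col1a1 in 26 and 9 (also lost with the muscle score), and Col9a3 in 26 and 8 (also lost with the adipocyte and fibroblast scores). The count of members past the threshold was 5 without a filter on low values, where Col1a1, Col1a2 and Col9a3 were lost, and 2 with the Schwann cell score. It ranged from 5 to 9 with a sample left out, and was 5 without SD 16 weeks replicate 1 and 5 without HFD-STZ 16 weeks replicate 1. Without HFD-STZ 24 weeks replicate 7 it was 9, with 6.61% of all genes. Counts of 10 (library-number runs), 11 (centred samples) and 12 (fibroblast score) were within 1.5 times of 8, and the shares of all genes past the threshold there were 6.99%, 10.9% and 3.04%. Col8a2, named here after its values were seen, was gained in the first 2 of these, Col4a1 in the last 2 and Col6a6 in the first. In the fit of all 8 groups, 1 member (Col26a1) passed between the ages in SD and 1 in HFD-STZ mice, and with library-number runs 2 (Col26a1 and Col28a1) and 1 did. With the fibroblast score, 1 member (Col4a3) passed for DR in the T2D model. Where no share of all genes is given, a count of members cannot be set against the share that passed over all genes. Replicate numbers are in accession order and pair no samples, so the runs of library numbers were the only blocking used.

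Directions of members that did not pass turned in the averaged contrast. With the Schwann cell score, the differences were -0.0755 (Col12a1), -0.41 (Col6a1), -0.28 (Col6a2), -0.42 (Col6a3), -0.35 (Col4a3), -0.0381 (Col4a4) and -0.22 (Col4a6). With the adipocyte score, they were -0.0861 (Col12a1), -0.35 (Col6a1), -0.32 (Col6a2), -0.38 (Col6a3), -0.27 (Col4a3), -0.0387 (Col4a4) and -0.0707 (Col4a6). With the fibroblast score, they were -0.0959 (Col12a1), -0.30 (Col6a1), -0.26 (Col6a2), -0.29 (Col6a3), -0.22 (Col4a3), -0.0333 (Col4a4) and -0.0416 (Col4a6), and Col6a1 passed (limma adjusted p = 0.0099). With centred samples, which moved the median of all genes to -0.053, Col6a1 was at -0.0565, Col6a2 at -0.0421, Col6a3 at -0.0377 and Col12a1 at -0.0513. With library-number runs, Col6a1 was at -0.047, Col6a2 at -0.0295 and Col12a1 at -0.0236. Leaving out a sample gave -0.0375 to 0.0848 for Col6a1, -0.0225 to 0.11 for Col6a2, -0.0359 to 0.12 for Col6a3 and -0.0391 to 0.0687 for Col12a1. With the adipocyte score, Col6a6 was at -0.12 between HFD and SD mice at 16 weeks. Outside the fits with a sample left out, 624 single-gene values kept their direction and side of the threshold. A further 29 turned direction, 15 no longer passed and 15 newly passed. There, 209 counts of members equalled the main count or lay within 1.5 times of it, and 7 did not. The main count was 0 in every comparison but the averaged age contrast, so most of these counts say little. With a sample left out, 1400 single-gene values were kept, 39 turned direction, 30 no longer passed and 4 newly passed. The cause of these changes was not tested.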
